A study of Caenorhabditis elegans with 2 samples.

Results

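The genes described here are 10 components of the TOR and AMPK nutrient-sensing pathways of *C. elegans*, chosen by name from the 46904 genes of the deposited table: *let-363*, *daf-15*, *rict-1*, *rsks-1*, *raga-1*, *ragc-1*, *rheb-1*, *aak-1*, *aak-2* and *hlh-30*. Their WormBase identifiers were matched to symbols, and all 10 had a row with reads in both libraries. Whole N2 worms were fed *L. plantarum* together with a trace (0.2 µl) of *E. coli*, which was wild-type BW25113 in one group and the *pdxH* mutant of the same parent strain in the other (below, the wild-type and *pdxH* diets). *pdxH* encodes the oxidase that forms the active vitamin B6, PLP, and the comparison asked which host genes depend on it. By the paper's methods, the worms of both groups were at the same stage when collected, and RNA was extracted from a pellet of many animals. The paper also reports early larval arrest on the *pdxH* diet and growth on the wild-type diet. The part of a difference in growth or stage in the values below was not tested. Each diet was represented by 1 library, so no value has a replicate, no test between the diets could be made, and a difference between diets cannot be told apart from a difference between 2 single worm cultures.

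TOR is a protein kinase that promotes growth and protein synthesis when nutrients are plentiful. It works in the complex TORC1, which contains Raptor and is switched on at the lysosome by the Rag and Rheb GTPases, and in the complex TORC2, which contains Rictor. AMPK is a kinase that responds to low cellular energy and opposes many of the same processes, and the transcription factor HLH-30, the worm relative of mammalian TFEB, turns on autophagy and lysosomal genes when food is short. In worms these proteins are known for their roles in larval growth, fat storage, survival of starvation and lifespan. Much of their control is exerted on the proteins, by phosphorylation and by movement within the cell, which RNA-seq does not measure.

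The libraries held 40707752 reads on the wild-type diet and 46372171 on the *pdxH* diet, recovered as whole reads from the deposited values. All 24 genes fixed as tissue markers had reads in both libraries, at least 310 each. Markers of the epidermis were lower on the *pdxH* diet in 3 of 4 cases. They summed to 35215 reads on the wild-type diet and 20989 on the *pdxH* diet, a log2 ratio of -0.93 after scaling by the library totals. Most of these reads came from *rol-6* (22504 and 10150, ratio -1.34) and *dpy-7* (5497 and 2745, ratio -1.19). The ratios of *lin-26* and *elt-3* were -0.27 and 0.17, so the sum does not stand for all 4 markers. The germ line markers were lower in 4 of 4, with 10064 and 7645 reads, a scaled log2 ratio of -0.58. The neuronal markers were higher in 4 of 4, with 14567 and 18329 reads, a scaled log2 ratio of 0.14. The summed values of intestine, body wall muscle and pharynx markers had log2 ratios of -0.26, -0.18 and -0.046. The intestine sum was mostly the protease gene *asp-1*, with 117738 of 123686 reads on the wild-type diet, and without it, a setting added after seeing the data, the ratio was -0.074. In RNA from whole worms, fewer cells of a type, less RNA per cell and a change in the marker genes alone cannot be told apart. The part of these shifts in the values below was not tested.

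The 10 genes kept the same order of abundance on both diets. To compare genes, reads were divided by the length of their annotated exons and by the library total, which gives a value in RPKM (here called the level). The lowest level was that of *rict-1*, with 11.2 on the wild-type diet and 11.0 on the *pdxH* diet, and the highest was that of *hlh-30*, with 96.6 and 111. The highest level was thus 8.66 times the lowest on the wild-type diet and 10.1 times on the *pdxH* diet. Between them, in falling order, stood *aak-2*, *rsks-1*, *ragc-1*, *raga-1*, *daf-15*, *rheb-1*, *let-363* and *aak-1*. The counting intervals of *rsks-1* and *ragc-1* overlapped on the wild-type diet, and those of *daf-15* and *rheb-1* overlapped on the *pdxH* diet, so the order within these pairs was not resolved there. For comparison, the median level over genes with at least 100 reads was 13.6 on the wild-type diet and 13.1 on the *pdxH* diet, so *rict-1* lay below it on both diets and *aak-1* on the wild-type diet.

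**Figure D1:**
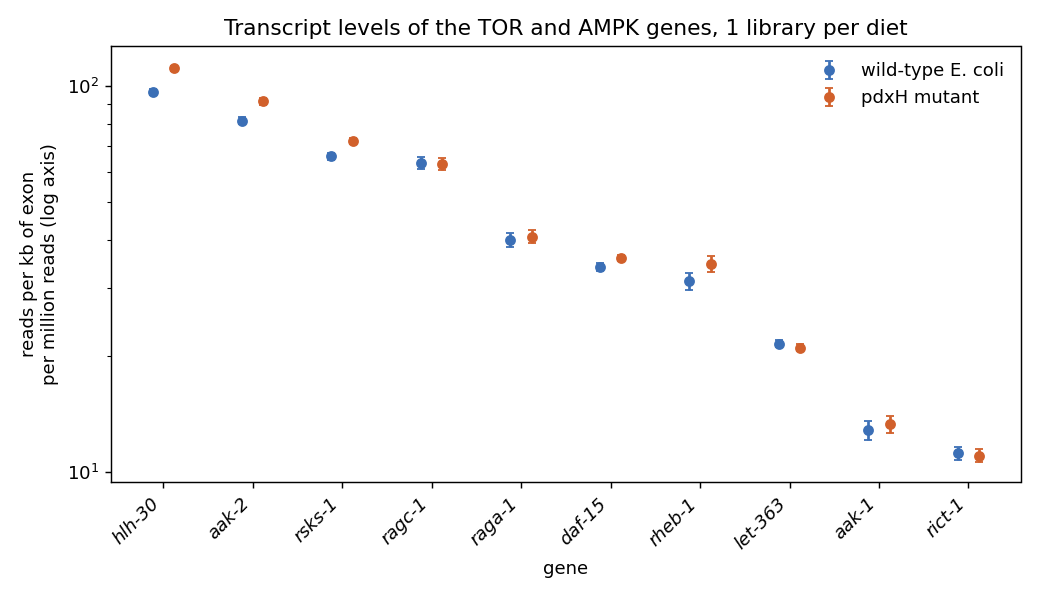
Level of each of the 10 genes (RPKM from exon lengths, log axis) on the wild-type (blue) and *pdxH* (orange) diets; each point is 1 library and the bars are 95% Poisson intervals of the counting error. The genes keep the same order on both diets, from *hlh-30* at 96.6 and 111 to *rict-1* at 11.2 and 11.0.

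Differences between the diets were small for every one of the 10 genes. The log2 ratio of the *pdxH* library over the wild-type library, with a pseudocount of 1, ran from -0.036 for *let-363* to 0.21 for *hlh-30*, and the median was 0.065. None of the 10 genes was past a log2 ratio of 0.5 in either direction, while 13.6% of the 13227 genes with at least 100 reads were, as were 8.2% of the 8239 genes with at least 1000 reads, the depth class to which all 10 belong. The median size of the difference was 0.065 on the log2 scale for the 10 genes and 0.14 for the genes with at least 1000 reads. The ratio was above 0 for 7 of the 10 genes, against 51.8% of genes with at least 100 reads, and this count was 9 (57.2% of genes) when the libraries were scaled by their upper quartile and 10 (85.1% of genes) when they were scaled to *act-1*, the actin gene used as the study's qPCR reference. The 95% counting interval lay above 0 for 5 genes, *hlh-30*, *aak-2*, *rheb-1*, *rsks-1* and *daf-15*, and below 0 for 0 genes. Among all genes with at least 1000 reads it lay above 0 for 33.3% and below 0 for 30.4%. An assumed coefficient of variation of 0.1 between replicate cultures, even without counting error, gives an interval that reaches 0.40 to each side. With it the interval left out 0 for 0 of the 10 genes. The largest ratio was 0.21, so none could pass. The coefficient was assumed and not estimated from these libraries, so the spread between cultures remains unknown.

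**Figure D2:**
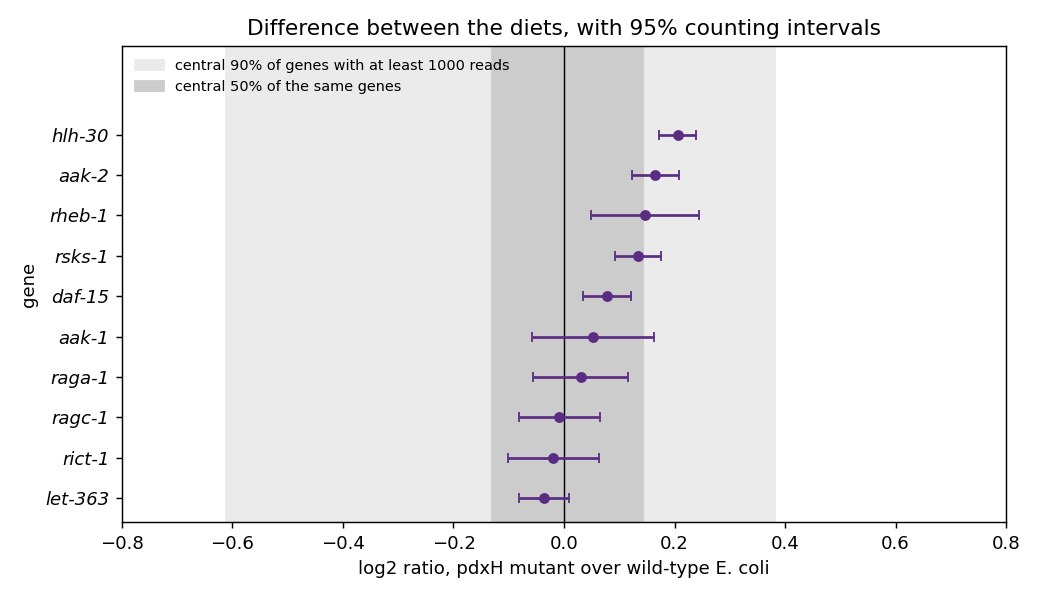
Log2 ratio of the *pdxH* library over the wild-type library for each gene (points), with 95% intervals of the counting error (bars), over the central 50% (dark band) and central 90% (light band) of the 8239 genes with at least 1000 reads. All 10 points lie between -0.036 and 0.21, inside the light band, and 5 intervals lie wholly above 0.

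The TOR kinase itself, encoded by *let-363* (WBGene00002583, chromosome I, 5245743 to 5263424, plus strand, in WBcel235 as for all positions here), had 7495 reads on the wild-type diet and 8326 on the *pdxH* diet. Scaled by the library totals, its level was 21.5 and 21.0, and its log2 ratio was -0.036 (95% counting interval -0.081 to 0.0090). This difference was within the counting error. *let-363* is a long gene, with 8560 bases of exons in 32 merged exons over a span of 17682 bases, so its many reads correspond to a middling level.

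The 2 subunits that set the TOR complexes apart both had ratios close to 0. *daf-15* (WBGene00000911, chromosome IV, 9386208 to 9394979, plus strand), which encodes Raptor of TORC1, had 8134 and 9779 reads, levels of 33.96 and 35.85, and a log2 ratio of 0.078 (0.035 to 0.12). *rict-1* (WBGene00009245, chromosome II, 13098239 to 13116810, minus strand), which encodes Rictor of TORC2, had 2282 and 2565 reads, levels of 11.2 and 11.0, and a log2 ratio of -0.019 (-0.10 to 0.063). The difference of *daf-15* was larger than the counting error and that of *rict-1* was within it. Of the reads of both genes together, *daf-15* held 78.1% (Clopper-Pearson 95% interval 77.3 to 78.9) on the wild-type diet and 79.2% (78.5 to 79.9) on the *pdxH* diet. The share was thus similar on the 2 diets. The intervals overlapped, which does not show that the shares were equal. A share of this kind does not depend on how the libraries are scaled. *daf-15* shares 107 exon bases with the collagen gene *col-121* on the opposite strand (0 and 3 reads), and *rict-1* shares 37 with *col-86* on its own strand (16 and 15 reads).

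The GTPases that activate TORC1 differed little as well. *rheb-1* (WBGene00010038, chromosome III, 9454163 to 9456030, minus strand) encodes Rheb, which in mammals binds and activates the kinase at the lysosome. It had 1517 and 1913 reads, levels of 31.3 and 34.6, and a log2 ratio of 0.15 (0.049 to 0.24), higher on the *pdxH* diet by 10.7%. *raga-1* (WBGene00006414, chromosome II, 11301359 to 11302776, plus strand) and *ragc-1* (WBGene00012497, chromosome IV, 11603613 to 11604933, minus strand) encode the 2 partners of the Rag dimer, which brings TORC1 to the lysosome when amino acids are present. *raga-1* had 2058 and 2394 reads, with a log2 ratio of 0.030 (-0.055 to 0.12). *ragc-1* had 2831 and 3206 reads, with a log2 ratio of -0.0085 (-0.082 to 0.065). Both were within the counting error, and *raga-1* held 42.1% (40.7 to 43.5) and 42.8% (41.4 to 44.1) of the reads of the pair.

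*rsks-1* (WBGene00012929, chromosome III, 11245120 to 11252281, plus strand) encodes the ribosomal S6 kinase, a substrate of TORC1 that promotes translation. It had 8169 reads on the wild-type diet and 10212 on the *pdxH* diet, at levels of 65.8 and 72.2. Its log2 ratio was 0.13 (0.092 to 0.18), higher on the *pdxH* diet by 9.74%. This was more than the counting error, but 58.8% of the genes with at least 100 reads differed by as much or more in one direction or the other.

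The 2 genes for the catalytic alpha subunit of AMPK were expressed at unequal levels, and *aak-2*, the more abundant, was the one whose interval left out 0. *aak-2* (WBGene00020142, chromosome X, 16796087 to 16803398, plus strand) had 8068 and 10306 reads, levels of 81.5 and 91.4, and a log2 ratio of 0.17 (0.12 to 0.21), higher on the *pdxH* diet by 12.1%. *aak-1* (WBGene00019801, chromosome III, 8756990 to 8761090, minus strand) had 1219 and 1440 reads, levels of 12.8 and 13.3, and a log2 ratio of 0.052 (-0.059 to 0.16). These intervals overlap, so the genes were not shown to differ in their ratios. *aak-2* held 86.9% of the alpha subunit reads (86.2 to 87.6) on the wild-type diet and 87.7% (87.1 to 88.3) on the *pdxH* diet. Per exon length the shares were 86.4% and 87.3%. *aak-1* shares 100 of its 2337 exon bases with *sma-2* on the opposite strand (761 and 1173 reads), and *aak-2* shares 78 of 2431 with *mec-4* on the opposite strand (204 and 255 reads). Whether the counting used strand is not given in the sources used here, so a small part of the reads of either gene could belong to its neighbour.

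*hlh-30* (WBGene00020930, chromosome IV, 4014793 to 4034951, minus strand) was at once the most abundant of the 10 genes by level and the one with the largest ratio. It had 12851 reads on the wild-type diet and 16881 on the *pdxH* diet, at levels of 96.6 and 111. Its log2 ratio was 0.21 (0.17 to 0.24), higher on the *pdxH* diet by 15.3%. Of the genes with at least 100 reads, 43.0% differed by as much or more in one direction or the other, and 22.2% were as high or higher. *hlh-30* has 13 annotated transcripts, and the table gives 1 value per gene, so its isoforms were not told apart.

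The remaining subunits of AMPK, the kinase complex upstream of it and the CRTC and CREB genes downstream were examined next, since the enzyme works as a trimer of an alpha, a beta and a gamma subunit. Of 13 such genes, 0 were past a log2 ratio of 0.5, and the median was 0.070. The interval lay above 0 for 6 and below 0 for 0, against 28.7% and 27% of genes with at least 100 reads. These shares were 33.3% and 30.4% among genes with at least 1000 reads, the class of 12 of the 13. *aakg-4*, one of 5 genes for the gamma subunit, which senses adenine nucleotides, had the highest ratio, with 860 and 1178 reads and 0.27 (0.14 to 0.39). It held 10.1% of the gamma subunit reads (9.46 to 10.8) on the wild-type diet and 11.5% (10.9 to 12.1) on the *pdxH* diet. These intervals do not overlap, but *aakg-4* was named for its ratio, the highest of the 13, so this share was not chosen independently of the difference. *aakg-4* shares 21 of its 2340 exon bases with *hum-6* on the opposite strand (4297 and 3888 reads). *aakg-3* had 275 and 352 reads, with a ratio of 0.17 (-0.064 to 0.40), within the counting error. The lowest ratios were those of *strd-1*, with 1080 and 1198 reads, and *mop-25.2*, with 1383 and 1534, each at -0.038 and each within the counting error. They encode relatives of the mammalian proteins STRAD and MO25, which hold the AMPK-activating kinase LKB1 in its active form. The other MO25 gene of the list, *mop-25.1*, had 9969 and 12616 reads, with a ratio of 0.15 (0.11 to 0.19). It held 87.8% and 89.2% of the reads of *mop-25.1* and *mop-25.2* together. The worm LKB1 gene *par-4* had 1278 and 1495 reads, with a ratio of 0.038 (-0.070 to 0.15).

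**Figure D3:**
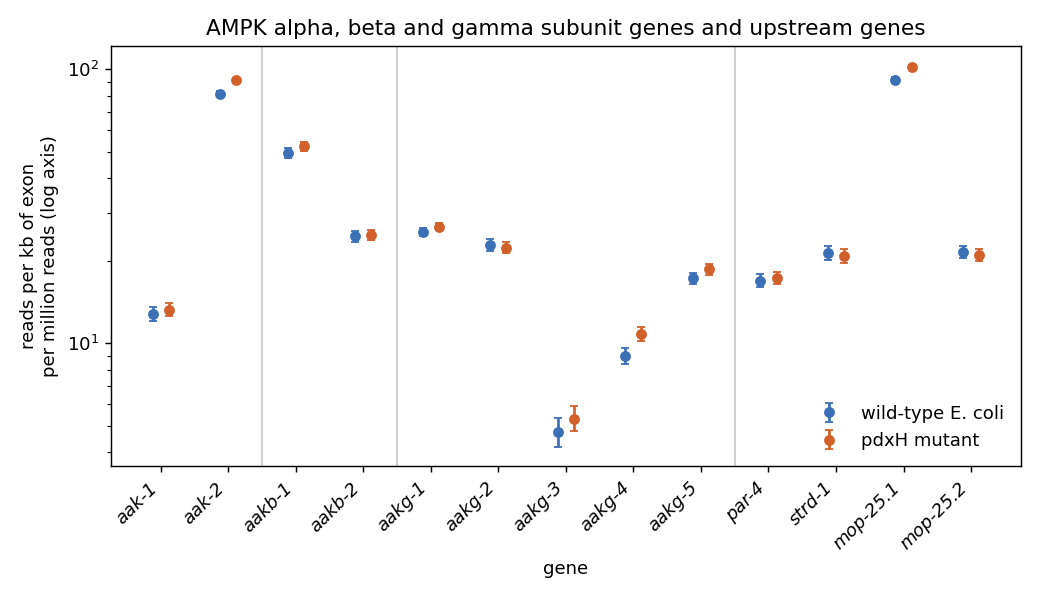
Levels (RPKM from exon lengths, log axis) of the AMPK alpha (*aak*), beta (*aakb*) and gamma (*aakg*) subunit genes and of 4 upstream genes, separated by grey lines, on the wild-type (blue) and *pdxH* (orange) diets; each point is 1 library and the bars are 95% Poisson intervals. *aak-2* lies at 81.5 and 91.4 and *aak-1* at 12.8 and 13.3, and the points of the diets lie close together for each gene.

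Among 14 further genes of the TOR complexes and of the translation machinery below them, 0 were past 0.5 and the median log2 ratio was 0.012, close to the median of 0.010 over genes with at least 100 reads. The interval lay above 0 for 3 and below 0 for 5, shares near the 28.7% and 27% of genes with at least 100 reads. *mlst-8*, which encodes the subunit shared by both TOR complexes, had 903 and 1033 reads, with a ratio of 0.0061 (-0.12 to 0.14). *sinh-1*, the SIN1 subunit of TORC2, had 354 and 461 reads, with a ratio of 0.19 (-0.0099 to 0.40), within the counting error. The highest ratio was that of *efk-1*, the kinase that restrains translation elongation by phosphorylating elongation factor 2. It had 17026 reads on the wild-type diet and 24519 on the *pdxH* diet, at levels of 155 and 195, and a ratio of 0.34 (0.31 to 0.37). The lowest ratios belonged to translation initiation factors. *ife-5*, one of the eIF4E genes, had 182 and 158 reads, with a ratio of -0.39 (-0.71 to -0.077), and *ifg-1*, the eIF4G gene, had 11278 and 10655 reads, with a ratio of -0.27 (-0.31 to -0.23). On the wild-type and *pdxH* diets, *ife-5* held 1.93% and 1.53% of the reads of *ife-1* to *ife-5*, and *ife-1* held 47.2% and 49.9%. The ratios of *ife-1*, *ife-2*, *ife-3* and *ife-4* were 0.019, -0.11, -0.18 and 0.091, so *ife-5* does not stand for the eIF4E genes. *ife-5* has close relatives among the eIF4E genes, and how reads shared by related genes were counted is not given in the sources used here.

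The 9 genes of the amino acid branch, which controls the Rag GTPases, were likewise within 0.5, with a median of 0.071. Their interval lay above 0 for 3 and below 0 for 3, near the 28.7% and 27% of genes with at least 100 reads. *sesn-1*, the sestrin gene, and *flcn-1*, the folliculin gene, had the highest ratios. *sesn-1* had 1172 and 1533 reads, with a ratio of 0.20 (0.089 to 0.31), and *flcn-1* had 3854 and 4964 reads, with a ratio of 0.18 (0.12 to 0.24). The lowest ratio was that of *nprl-2*, a subunit of GATOR1, which in other species holds TORC1 off when amino acids are scarce. It had 722 and 727 reads, with a ratio of -0.18 (-0.33 to -0.027), and 25.9% of its exon bases are shared with F49E8.8 on the same strand (132 and 184 reads). *npp-18*, a nucleoporin whose relatives are also part of GATOR2, had 1165 and 1206 reads, with a ratio of -0.14 (-0.26 to -0.021).

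The targets of these pathways were examined last, because the products of *hlh-30* and TOR act on autophagy, the lysosome and fat breakdown. The autophagy list held 19 genes with a row (the symbol *epg-1*, also listed, was not matched and may be an older name of one of them). The ratio was above 0 for all 19, against 51.8% of genes with at least 100 reads, or for 18 (50.0% of genes) when the libraries were scaled by the median of ratios. The median was 0.13, and the interval lay above 0 for 14 and below 0 for 0, against 28.7% and 27% of genes with at least 100 reads. For genes with at least 1000 reads, as 18 of the 19 had, these shares were 33.3% and 30.4%. None was past 0.5. *atg-16.2*, which takes part in attaching Atg8 proteins to membranes, had the highest ratio, with 1904 and 2744 reads and 0.34 (0.25 to 0.42). *lgg-2*, one of the worm's Atg8 genes, followed with 15161 and 20654 reads and 0.26 (0.23 to 0.29). The lowest were *sqst-1*, the gene for the autophagy receptor p62, with 29861 and 34142 reads and 0.0053 (-0.017 to 0.028), and *atg-3*, with 1301 and 1495 reads and 0.013 (-0.096 to 0.12). The neuronal markers, higher in 4 of 4 cases, had a median of 0.18, and their part in this pattern was not tested.

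The 5 helix-loop-helix genes studied alongside *hlh-30* had a median of 0.18. The interval lay above 0 for 3 and below 0 for 0, against 28.7% and 27% of genes with at least 100 reads. With at least 1000 reads, as all 5 had, these shares were 33.3% and 30.4%. *mxl-3*, which represses lipase genes in fed worms, had 11229 and 15392 reads, with a ratio of 0.27 (0.23 to 0.30). *mxl-2*, the partner of the Myc and Mondo-like factor *mml-1*, had 1360 and 1816 reads, with a ratio of 0.23 (0.13 to 0.33). The Max-like gene *mxl-1*, with 592 and 625 reads, and the Mad-like gene *mdl-1*, with 5345 and 5921, stood at -0.11 (-0.27 to 0.055) and -0.040 (-0.094 to 0.013), within the counting error.

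The lysosomal lipase genes were the one list with genes past a log2 ratio of 0.5, 2 of 6, and both were lower, against 8.89% of genes with at least 100 reads that were lower past this size. *lipl-2* had 430 reads on the wild-type diet and 129 on the *pdxH* diet, a log2 ratio of -1.92 (-2.22 to -1.64), or 3.78-fold lower. *lipl-1* had 186 and 84 reads, a log2 ratio of -1.33 (-1.72 to -0.96), or 2.51-fold lower. The intervals of both genes still lay below 0 with an assumed coefficient of variation of 0.2 between cultures, and they were the 2 genes of all those listed for which this held. That coefficient alone gives an interval that reaches 0.80 to each side. Every other listed gene had a ratio smaller than this and could not pass. Other members of the list went the opposite way. *lipl-4* had 267 and 405 reads, with a ratio of 0.41 (0.19 to 0.64), and *lipl-3* had 255 and 379 reads, with a ratio of 0.38 (0.15 to 0.62). *lipl-5* had 6589 and 7989 reads, with a ratio of 0.090 (0.043 to 0.14). By level, at 128 and 137, it was the most abundant of the *lipl* genes listed. The lysosomal membrane gene *lmp-1* had 7989 and 11083 reads, with a ratio of 0.28 (0.24 to 0.33). The intestinal markers, which mark the tissue known to express lipases of this family, were lower in 3 of 4 cases with a median of -0.12, and their part in these values was not tested.

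The V-ATPase is the proton pump that acidifies the lysosome, and in mammals amino acid sensing by TORC1 depends on it. The list held the 20 genes whose symbol is *vha-* and a number, so any gene of the pump with another name was left out. The ratio was below 0 for 18 of these 20 genes, against 48.2% of genes with at least 100 reads. This count was 15 with upper-quartile scaling (42.8% of genes) and 0 with scaling to *act-1* (14.9% of genes). The median was -0.084, or 0.22 with scaling to *act-1*, which moved the median of all genes with at least 100 reads to 0.31. The interval lay below 0 for 16 and above 0 for 2, against 27% and 28.7% of genes with at least 100 reads, and none was past 0.5. For genes with at least 1000 reads, as 19 of the 20 had, these shares were 30.4% and 33.3%. *vha-12*, which encodes the B subunit, had 20354 and 19350 reads, with a ratio of -0.26 (-0.29 to -0.23). *vha-18* had 307 and 285 reads, with a ratio of -0.29 (-0.53 to -0.058), and it shares 57 exon bases with F52E1.2 on the opposite strand (389 and 516 reads). *vha-5* and *vha-7* were the 2 on the other side of 0, with ratios of 0.094 (0.063 to 0.13) and 0.090 (0.031 to 0.15). Both encode the membrane-bound a subunit, but so does *vha-6*, which was lower. It had 33951 and 32737 reads, with a ratio of -0.24 (-0.26 to -0.22). The markers of the intestine were lower in 3 of 4 cases and those of the body wall muscle in 4 of 4, and their part in these values was not tested.

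**Figure D4:**
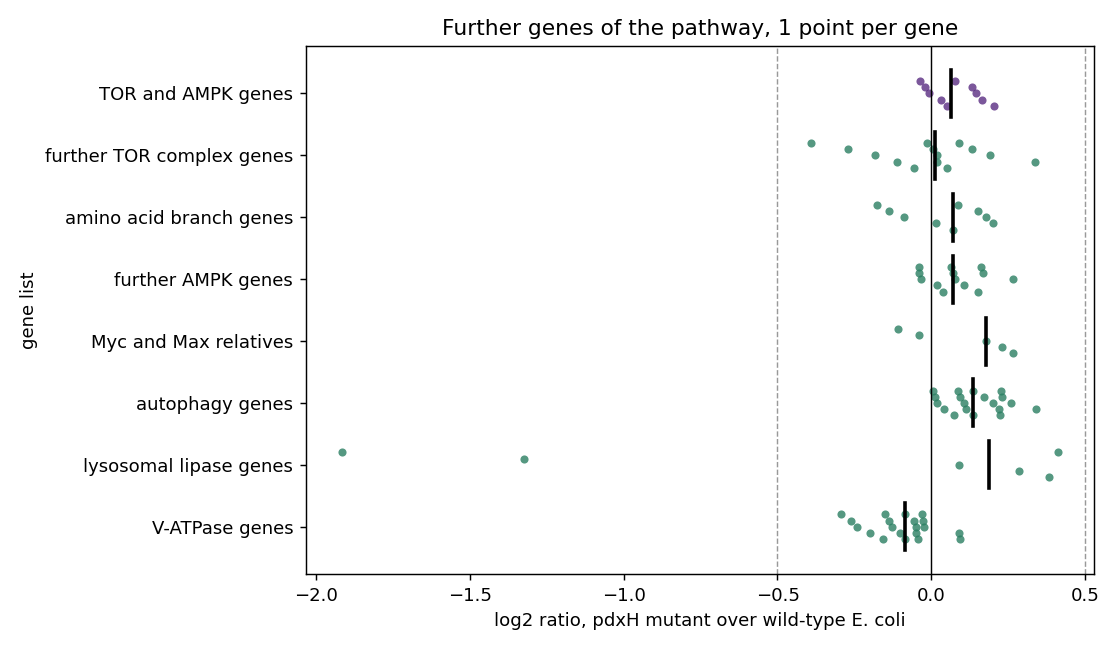
Log2 ratio of the *pdxH* library over the wild-type library for the 10 TOR and AMPK genes (purple) and for the genes of 7 further lists (green), 1 point per gene, with the median of each list as a black bar and dashed lines at 0.5 and -0.5. The points past a dashed line are *lipl-2* at -1.92 and *lipl-1* at -1.33. The 19 autophagy genes lie at or above 0.0053, and 18 of the 20 V-ATPase genes lie below 0 (15 with upper-quartile scaling and 0 with scaling to *act-1*).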

How the data were processed

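RNA was sequenced from whole worms on each diet, 1 library per diet. The authors trimmed reads with Trimmomatic, mapped them with STAR 2.5.3a (build ce11 in the submitters' processing notes), counted them per gene with HTSeq and ran GFOLD 1.1.4. The deposited signal is named RPKM, but every gene was given a length of 20 bases, so the signal is reads scaled by library size alone. The authors' own fold change columns were not used.

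Dividing by the signal of 1 read (1.23 and 1.08) gave whole reads within 0.02 for 97.8% and 97.6% of values, and for 100% of values worth up to 20 reads. Symbols, exons and coordinates came from WormBase identifiers in the Ensembl release 115 annotation of WBcel235, the same assembly as ce11. Ratios used log2 with a pseudocount of 1, and intervals are exact conditional binomial intervals on reads (Python 3.11.15, scipy 1.17.1, tested on simulated data). Intervals cover counting error only. A binomial test with Benjamini-Hochberg adjustment at 0.05 compared the libraries, not the diets, and called 3301 genes higher and 3326 lower of 23141. Besides the 10 genes and *act-1*, the text names the 2 highest and 2 lowest genes with at least 100 reads in each list. The genes *mlst-8*, *par-4*, *mop-25.1*, *ife-1* to *ife-4*, *vha-6*, *lipl-5* and *lmp-1* were named after their values were seen. So were same-strand overlapping genes and those overlapping genes of the lists. The members and lists were chosen with earlier results of these data known. No sequences are shown.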

Additional observations from a re-analysis of the deposited data

How the results depend on the processing

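No paired analysis was possible because the study sequenced 1 library on either diet, nor could any library be left out. Scaling to *act-1*, at 11042 and 10206 reads, with a ratio of -0.30 (-0.34 to -0.26), added 0.30 to every ratio and moved the median of all genes with at least 100 reads from 0.010 to 0.31, so values under it are to be read against that shift. Under it 1 of the 10 genes (*hlh-30*) was past 0.5 and the interval left out 0 for 10. The medians became 0.37 for the 10 genes, 0.31 for the further TOR complex genes, 0.37 for the amino acid branch, 0.37 for the further AMPK genes, 0.48 for the Myc and Max relatives, 0.44 for autophagy, 0.49 for the lipase list and 0.22 for the V-ATPase, which reversed in sign but remained under the shifted median. With an assumed coefficient of variation of 0.1 or 0.2, the interval left out 0 for 0 of the 10 genes, against 5 with counting error alone and 5 by the binomial test. These coefficients alone give intervals that reach 0.40 and 0.80 to each side, more than any of the 10 ratios, so none could pass. For the further lists, which was added after seeing the data, the interval left out 0 for *lipl-1* and *lipl-2* and no other gene at either value. Of those other genes, only *lipl-4* (0.41) had a ratio past 0.40. Scaling by the median of ratios gave 6 genes, *let-363* being added on the lower side, and upper-quartile scaling gave 5. Thresholds of 0.25 and 1, a filter of 1000 reads and pseudocounts of 0.1 and 10 left 0 of the 10 genes past the threshold. All 10 genes had at least 1000 reads in the 2 libraries together, yet the counting interval still spanned 0 for 5 of them. Depth limits more strongly the named genes with few reads, such as *ife-5*, *vha-18*, *aakg-3*, *sinh-1* and *lipl-1* to *lipl-4*.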
